A study of Mus musculus with 12 samples.

Results

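The *Hox* genes are the protein-coding genes of the 4 mouse Hox clusters (*Hoxa* on chromosome 6, *Hoxb* on chromosome 11, *Hoxc* on chromosome 15 and *Hoxd* on chromosome 2). Members were the protein-coding genes of the GENCODE M21 annotation named *Hoxa*, *Hoxb*, *Hoxc* or *Hoxd* with a number. All 39 such genes were found among 55401 genes listed for each library, 11 in *Hoxa*, 10 in *Hoxb*, 9 in *Hoxc* and 9 in *Hoxd*. RNA-Seq was performed on whole kidneys of 12 male C57BL6 mice, 1 library each. The 6 control mice were treated with vehicle (15% 2-hydroxypropyl-β-cyclodextrin), and the other 6 with SK-124, a selective inhibitor of the salt-inducible kinases SIK2 and SIK3, at 40 mg/kg i.p. Mice of this experiment were 8 weeks old, and the time between injection and collection of these kidneys was not given in the sources used here. No allele was altered in either group. The comparison asked how the kidney transcriptome responded to SIK inhibition.

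Hox genes encode homeodomain transcription factors that set position along the body axis in the embryo. Genes at the same place in different clusters descend from 1 ancestor and form a paralog group, numbered from 1 at the anterior end to 13 at the posterior end. In the developing kidney, the group 11 paralogs *Hoxa11*, *Hoxc11* and *Hoxd11* act in the metanephric mesenchyme, and *Hoxb7* is active in the ureteric bud and its collecting duct descendants. Adult kidney keeps transcribing many Hox genes.

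The libraries held between 19244227 and 19771802 expected counts each. The vitamin D 1-hydroxylase *Cyp27b1*, the gene around which the experiment was built, was at 5.46 ± 2.16 CPM (counts-per-million; SD, n = 6) in vehicle mice and at 32.4 ± 9.12 CPM in SK-124 mice. SK-124 mice 1 to 3 stood apart in that the 10 most abundant genes took 44.4% to 46.8% of their counts, against 38.6% to 40.2% in SK-124 mice 4 to 6 and 39.9% to 43.2% in vehicle mice. Counts were scaled by TMM (trimmed mean of M values), which sets each library against the bulk of its genes, and results are also given for either set of 3 mice alone. Markers of proximal tubule, loop of Henle, distal tubule, collecting duct, podocytes, endothelium and stroma were detected in every group, as whole kidney should hold. The 3 adipose markers were too low to test but were present in some kidneys, with *Ucp1* at up to 130 counts and sums of 0 to 10.2 CPM in vehicle mice and 0 to 7.39 CPM in SK-124 mice, and the 2 skeletal muscle markers never passed 1 count. In whole tissue, fewer cells of a type and less RNA per cell cannot be told apart.

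In vehicle mice the Hox genes spanned from 0 to 38.5 TPM (transcripts-per-million, a level corrected for transcript length). *Hoxa9* had the highest mean level, at 38.5 ± 3.68 TPM (SD, n = 6), followed by *Hoxd8* at 31.9 ± 3.45 TPM and *Hoxa7* at 31.7 ± 1.65 TPM. *Hoxd8* and *Hoxa7* differed by less than the SD of either, and *Hoxa9* overlapped both, with mice between 31.1 and 40.7 TPM. A gap separated these 3 genes from *Hoxb6*, at 15.2 ± 1.53 TPM. *Hoxc10* (13.6 ± 1.31 TPM), *Hoxa10* (12.6 ± 1.48 TPM), *Hoxb7* (11.6 ± 1.53 TPM), *Hoxd9* (11.2 ± 1.16 TPM), *Hoxc6* (11.2 ± 1.44 TPM) and *Hoxb8* (10.9 ± 1.18 TPM) followed, each within 1 SD of the next in order. Altogether 10 members had a mean above 10 TPM, 15 lay between 1 and 10 TPM, 6 between 0.1 and 1 TPM, and 8 at 0.1 TPM or below. The *Hoxa* cluster contributed 37.4% of summed Hox TPM in vehicle mice, *Hoxb* 27.7%, *Hoxd* 22.1% and *Hoxc* 12.8%.

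**Figure D1:**
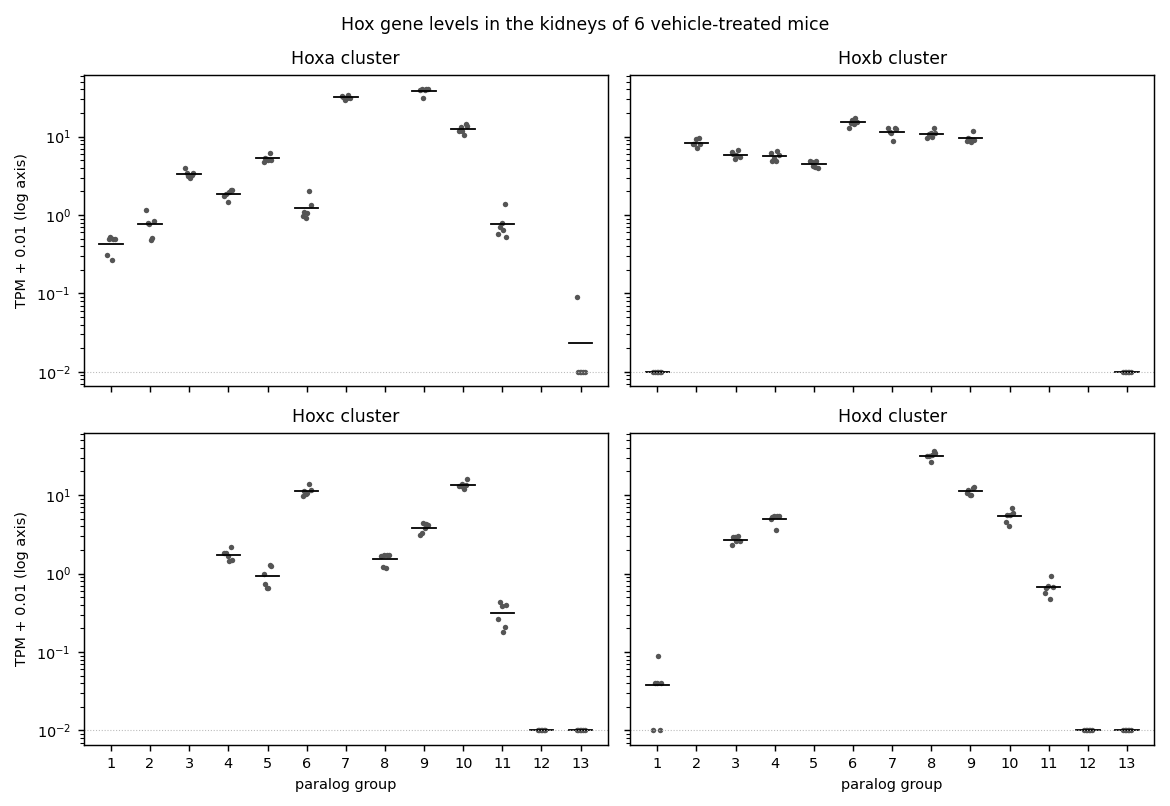
Level of each Hox gene in the 6 vehicle mice, as TPM + 0.01 on a log axis, by paralog group (x axis) and cluster (panels); points are mice and bars are means. The 10 genes with a mean above 10 TPM lay in groups 6 to 10, where other genes, such as *Hoxa6* and *Hoxc8*, were low. The group 12 and 13 genes sat at or near the floor in each cluster that holds them.

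Levels were then summed over the clusters by paralog group. Group 9 was highest at 63.0 ± 4.91 TPM, followed by group 8 at 44.4 ± 4.08 TPM and group 7 at 43.3 ± 2.78 TPM. Group 10 reached 31.6 ± 3.01 TPM, and group 11, the group required for kidney formation in the embryo, only 1.72 ± 0.431 TPM. Within it, *Hoxa11* was at 0.762 ± 0.308 TPM, *Hoxd11* at 0.653 ± 0.150 TPM and *Hoxc11* at 0.302 ± 0.108 TPM. *Hoxc12*, *Hoxd12*, *Hoxb13* and *Hoxc13* had 0 counts in all 12 mice. A count of 0 allows up to 3 counts in a library, which is 0.152 to 0.156 CPM, and this limit covers counting error only. *Hoxa13*, *Hoxd13*, *Hoxb1* and *Hoxd1* never passed 3 counts in any mouse. These 8 genes were too low to test, which left 31 members for the comparison.

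Promoter sequence is shown for the 2 Hox genes that rose with SK-124 and for 2 *Hoxa* neighbors that fell, since SIKs are known to restrain CRTC coactivators of CREB, the factor that binds the cAMP response element (CRE). The RefSeq promoter table (GRCm38.p6) held 24 promoters of 22 of the 39 genes. Each sequence is the stretch upstream of a RefSeq transcript start that no GENCODE exon covers, 5′ to 3′ on the gene's strand. Capitals mark the CRE half-site TGACG, here read on the opposite strand. The stretches are chr2:74704365-74704614 (+ strand) for *Hoxd8*, chr2:74697587-74697726 (+ strand) for *Hoxd9*, chr6:52227371-52227620 (- strand) for *Hoxa9* and chr6:52240855-52241104 (- strand) for *Hoxa10*.
Hoxd8: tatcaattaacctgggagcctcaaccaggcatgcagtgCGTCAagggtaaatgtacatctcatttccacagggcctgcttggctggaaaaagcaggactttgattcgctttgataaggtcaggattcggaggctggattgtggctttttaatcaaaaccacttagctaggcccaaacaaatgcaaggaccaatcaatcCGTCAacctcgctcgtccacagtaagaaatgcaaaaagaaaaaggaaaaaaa
Hoxd9: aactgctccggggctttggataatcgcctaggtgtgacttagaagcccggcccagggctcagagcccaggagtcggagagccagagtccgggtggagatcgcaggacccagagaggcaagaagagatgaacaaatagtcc
Hoxa9: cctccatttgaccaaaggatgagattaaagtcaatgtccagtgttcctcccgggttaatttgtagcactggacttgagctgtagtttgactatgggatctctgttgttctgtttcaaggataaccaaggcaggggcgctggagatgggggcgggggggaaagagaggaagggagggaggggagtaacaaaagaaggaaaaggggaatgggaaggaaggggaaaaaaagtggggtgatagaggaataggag
Hoxa10: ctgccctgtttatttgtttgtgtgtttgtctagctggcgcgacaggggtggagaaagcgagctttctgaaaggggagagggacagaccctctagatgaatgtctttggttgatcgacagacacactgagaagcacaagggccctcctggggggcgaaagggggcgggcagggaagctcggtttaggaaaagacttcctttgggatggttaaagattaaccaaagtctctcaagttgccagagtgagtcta

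*Hoxd8* carried the half-site at 2 places, at bases -212 to -208 and -52 to -48 from the transcript start, and the *Hoxd9*, *Hoxa9* and *Hoxa10* stretches carried none. The *Hoxd9* stretch is only 140 bases long, since exons cover 110 of its 250, and the other 3 stretches are 250 bases long. Another *Hoxa10* promoter, chr6:52234940-52235189, is not shown and also held no half-site. Over the 250 bases before each start, searched on both strands, 7 of 24 Hox promoters held the half-site, against 17.8% of all 32851 promoters in the table. The 7 were promoters of *Hoxa5*, *Hoxa6*, *Hoxa11*, *Hoxb1*, *Hoxd3*, *Hoxd8* and *Hoxd11*, of which *Hoxd8* alone passed the test between the groups and *Hoxb1* was too low to test. No promoter was available for *Hoxb7*, *Hoxc5*, *Hoxc6*, *Hoxc8* and *Hoxc10*, so that these genes, which fell with SK-124, were not searched. The full CRE TGACGTCA, which contains the half-site, was in 0 of 24 Hox promoters and in 1.55% of all promoters. The Hox-Pbx letters TGATTNAT were in 2 Hox promoters (2.82% of all), and the TATA box letters TATAAA in 4 (12.4% of all). Hox promoters were richer in CpG, with a median of 12.5 CpG in 250 bases against 6 over all promoters. A match is a description of letters and not a site in use.

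With SK-124, 2 of the 31 tested Hox genes rose, 9 fell and 20 did not pass the threshold (edgeR quasi-likelihood test, Benjamini-Hochberg adjusted p under 0.05 over 14159 genes). The genes that rose were neighbors in 1 cluster, *Hoxd8* and *Hoxd9*. Those that fell were *Hoxa3*, *Hoxa9*, *Hoxa10*, *Hoxb7*, *Hoxc4*, *Hoxc5*, *Hoxc6*, *Hoxc8* and *Hoxc10*. Over all genes tested, 24.4% were called in either direction, 10.8% higher and 13.5% lower, so that the share of Hox genes called (35.5%) was above the background through the lower calls (29.0%), while the share called higher (6.45%) was below it. The groups of mice did not overlap in 5 members, or 16.1%, against 13% of all genes. The median log2 fold change was -0.15 over the 31 members and -0.005 over all genes tested, with 24 estimates below 0 and 7 above.

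**Figure D2:**
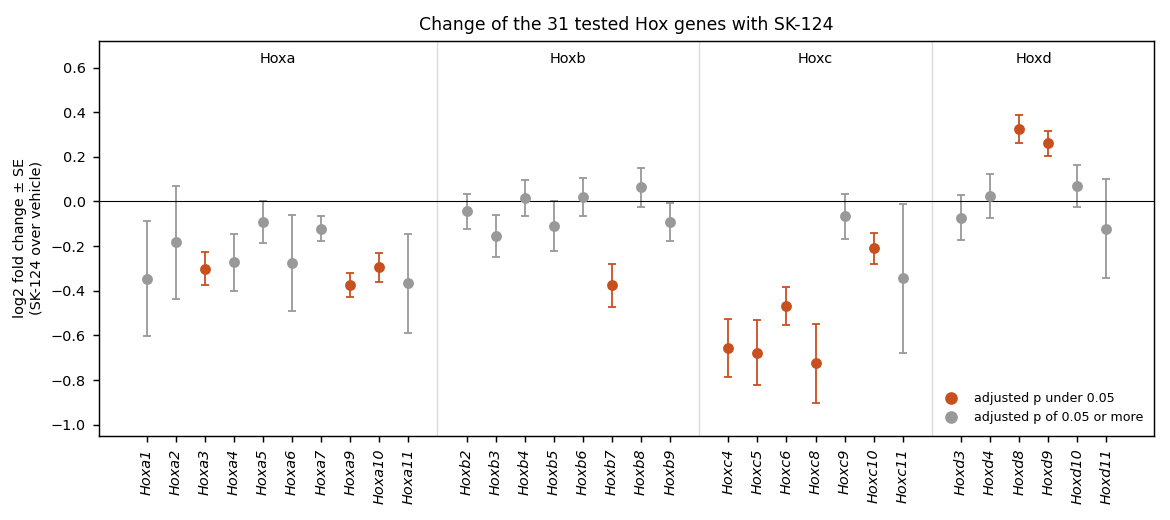
Log2 fold change (SK-124 over vehicle) with its SE for the 31 tested Hox genes, in cluster and paralog order; orange points passed the threshold. All estimates in *Hoxa* and *Hoxc* lay below 0, and the genes that rose, *Hoxd8* and *Hoxd9*, lay side by side in *Hoxd*.

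The number of Hox genes called higher moved with the scaling and, among the fits on fewer mice, only with SK-124 mice 1 to 3 alone. It was 2 with RLE size factors and with library totals that left out the 10 most abundant genes. With full library totals in place of TMM, the median of all genes moved to -0.12, and the split over all genes went from 1536 higher and 1917 lower to 777 higher and 3058 lower. Under that scaling 0 Hox genes were called higher and 11 lower. With SK-124 mice 4 to 6 alone against the vehicle mice, 2 were called higher and 8 lower, and with SK-124 mice 1 to 3 alone, 1 higher and 6 lower. Calls over all genes were also fewer there. They were 1179 higher and 1267 lower of 14621 with mice 4 to 6, and 1065 higher and 1233 lower of 14512 with mice 1 to 3. A fit with 3 SK-124 mice has less power, so a call lost there does not by itself show that the mice differed.

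*Hoxd8*, 1 of the 3 most abundant Hox genes of the kidney, was higher in every SK-124 mouse than in any vehicle mouse. The vehicle mice ran from 53.4 through a median of 57.7 to 62.9 CPM, and the SK-124 mice from 65.2 through 71.5 to 81.3 CPM. This was a rise of 1.25-fold (log2 fold change 0.32, SE 0.06, edgeR adjusted p = 0.000887). *Hoxd9*, its neighbor, ran from 22.2 through 23.4 to 25.0 CPM in vehicle mice and from 24.8 through 28.6 to 29.6 CPM in SK-124 mice. All SK-124 mice but mouse 2 lay above the vehicle mice, and the rise was 1.20-fold (log2 fold change 0.26, SE 0.06, edgeR adjusted p = 0.00239). Both estimates stayed positive but lost the call with library totals, at log2 fold changes of 0.21 for *Hoxd8* (edgeR adjusted p = 0.0574) and 0.15 for *Hoxd9* (edgeR adjusted p = 0.203). *Hoxd9* also lost its call with SK-124 mice 1 to 3 alone (log2 fold change 0.22, edgeR adjusted p = 0.0580). On log2(TPM + 1), limma gave 0.25 for *Hoxd8* (adjusted p = 0.132) and 0.10 for *Hoxd9* (adjusted p = 0.546). Over all alternatives the adjusted p ran from 9.19e-06 to 0.132 for *Hoxd8* and from 0.000126 to 0.549 for *Hoxd9*. The other 4 tested *Hoxd* genes, *Hoxd3*, *Hoxd4*, *Hoxd10* and *Hoxd11*, had log2 fold changes between -0.12 and 0.07, and none was called. *Hoxd3* and *Hoxd4* share 62.3% and 52.3% of their exon bases with other genes on the same strand, each other among them, so that their separate counts are uncertain.

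A ratio of reads within a library depends on no scaling. The pair was chosen after the values were seen and is given as a description: *Hoxd8* had 1.29 to 1.57 reads for each *Hoxa9* read in vehicle mice, with a median of 1.44, and 2.03 to 2.73 in SK-124 mice, with a median of 2.28. *Hoxd9* had 0.523 to 0.630 reads for each *Hoxa9* read in vehicle mice and 0.799 to 0.971 in SK-124 mice. In both ratios the groups did not overlap, which shows unequal change of the 2 genes and not that either stayed the same.

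In the *Hoxa* cluster, 3 of 10 tested genes fell, none rose, and all 10 estimates were below 0. *Hoxa9*, known for its part in blood stem cells and leukemia, was the most abundant Hox gene in vehicle mice and had the smallest p of the 31. In SK-124 mice its level was 28.5 ± 4.83 TPM, under the 38.5 ± 7.02 TPM of *Hoxd8*. It ran from 37.0 through a median of 40.4 to 42.4 CPM in vehicle mice and from 29.5 through 30.4 to 33.8 CPM in SK-124 mice, with no overlap. The fall was 22.9% (log2 fold change -0.37, SE 0.05, edgeR adjusted p = 5.86e-05). *Hoxa10*, which patterns the uterus and the lumbar region, ran from 17.3 through 19.8 to 21.7 CPM in vehicle mice and from 15.0 through 15.8 to 17.8 CPM in SK-124 mice. Only the highest SK-124 mouse reached the lowest vehicle mouse (log2 fold change -0.29, SE 0.07, edgeR adjusted p = 0.00298). *Hoxa3*, an anterior gene required for the thymus and parathyroids in the embryo, ran from 7.68 through 8.30 to 9.04 CPM in vehicle mice and from 6.27 through 6.73 to 7.23 CPM in SK-124 mice. These groups did not overlap (log2 fold change -0.30, SE 0.07, edgeR adjusted p = 0.00569), but the call was lost with SK-124 mice 4 to 6 alone (log2 fold change -0.24, edgeR adjusted p = 0.0863; 0.000754 at the other end of the alternatives), and antisense genes cover 25.4% of its exon bases, whose reads cannot be told apart where strand was not counted.

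The other 7 tested *Hoxa* genes had log2 fold changes between -0.37 and -0.09, with edgeR adjusted p between 0.135 and 0.653. *Hoxa7*, the third gene by level, was at 58.1 ± 2.53 CPM in vehicle mice and 53.4 ± 4.11 CPM in SK-124 mice (log2 fold change -0.12, SE 0.06, edgeR adjusted p = 0.135). It passed the threshold on the lower side with library totals (log2 fold change -0.24, edgeR adjusted p = 0.00557) and with SK-124 mice 4 to 6 alone (log2 fold change -0.21, edgeR adjusted p = 0.0359), while over all alternatives the adjusted p ran from 0.00557 to 0.809. *Hoxa11* had a log2 fold change of -0.37 with an SE of 0.22 (edgeR adjusted p = 0.259), and *Hoxa11os* on the opposite strand covers 35.0% of its exon bases. *Hoxa11* had 18 to 61 counts a mouse.

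The *Hoxc* cluster had the largest share of lower genes, 5 of 7 tested, and no estimate above 0. *Hoxc8*, which acts in the thoracic region and in motor neurons, had the lowest log2 fold change of the 31 (-0.73, SE 0.18, edgeR adjusted p = 0.00568). It ran from 2.37 through a median of 3.03 to 3.58 CPM in vehicle mice and from 1.18 through 1.79 to 2.75 CPM in SK-124 mice, where mouse 2 alone lay among the vehicle mice. The call was lost with SK-124 mice 1 to 3 alone (log2 fold change -0.62, edgeR adjusted p = 0.0875). *Hoxc5* ran from 1.88 through 1.98 to 2.13 CPM in vehicle mice and from 0.984 through 1.19 to 1.65 CPM in SK-124 mice, with no overlap (log2 fold change -0.68, SE 0.15, edgeR adjusted p = 0.00233). *Hoxc4* ran from 2.80 through 3.65 to 4.08 CPM in vehicle mice and from 1.78 through 2.15 to 2.66 CPM in SK-124 mice, again with no overlap (log2 fold change -0.66, SE 0.13, edgeR adjusted p = 0.00123). All 3 were low genes, at 17 to 86 counts a mouse, and fell by 36.5% to 39.5%.

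*Hoxc6*, a more abundant gene of this cluster, ran from 13.2 through a median of 15.3 to 17.3 CPM in vehicle mice and from 9.98 through 10.5 to 13.9 CPM in SK-124 mice. SK-124 mouse 1 alone overlapped the vehicle mice (log2 fold change -0.47, SE 0.09, edgeR adjusted p = 0.000578). *Hoxc10*, the fifth gene by level in vehicle mice, ran from 23.1 through 24.3 to 28.0 CPM in vehicle mice and from 19.2 through 21.6 to 24.3 CPM in SK-124 mice. SK-124 mouse 5 alone lay among the vehicle mice. The fall was the smallest called among the 9 (log2 fold change -0.21, SE 0.07, edgeR adjusted p = 0.0301) and was lost without vehicle mouse 6 (edgeR adjusted p = 0.0737) or without SK-124 mouse 3 (0.0748), 4 (0.0573) or 6 (0.0570), and over all alternatives this p ran from 0.00287 to 0.209. This call was also lost with SK-124 mice 4 to 6 alone (log2 fold change -0.16, edgeR adjusted p = 0.209) and with mice 1 to 3 alone (-0.25, edgeR adjusted p = 0.0655). *Hoxc9*, between *Hoxc8* and *Hoxc10* on the chromosome, did not pass (log2 fold change -0.07, SE 0.10, edgeR adjusted p = 0.685), nor did *Hoxc11* (log2 fold change -0.34, SE 0.33, edgeR adjusted p = 0.503). *Hoxc5* and *Hoxc10* share 5.37% and 8.70% of their exon bases with each other. The effective length that RSEM gave *Hoxc5* ran from 1030 to 2720 bases between mice, and its call was lost on log2(TPM + 1) in limma (log2 difference -0.28, adjusted p = 0.0813, the highest over the alternatives, the lowest being 0.000758).

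In the *Hoxb* cluster, 1 of 8 tested genes was called. *Hoxb7*, the ureteric bud gene, ran from 10.9 through a median of 13.8 to 15.1 CPM in vehicle mice and from 8.16 through 10.5 to 12.03 CPM in SK-124 mice. Vehicle mouse 4 lay among the SK-124 mice and the other 5 above them, and the fall was 22.9% (log2 fold change -0.38, SE 0.10, edgeR adjusted p = 0.00737). It was lost with SK-124 mice 1 to 3 alone (log2 fold change -0.31, edgeR adjusted p = 0.0571) and was at 0.001285 under the alternative with the lowest p. The other 7, *Hoxb2* to *Hoxb6*, *Hoxb8* and *Hoxb9*, had log2 fold changes between -0.15 and 0.06 with edgeR adjusted p between 0.260 and 0.922. *Hoxb6* was at 21.04 ± 2.16 CPM in vehicle mice and 21.3 ± 2.56 CPM in SK-124 mice (SE of the log2 fold change 0.08), and *Hoxb8* at 23.1 ± 2.15 and 24.2 ± 3.39 CPM (SE 0.09). *Hoxb3os* covers 52.9% of the exon bases of *Hoxb3* on the opposite strand.

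**Figure D3:**
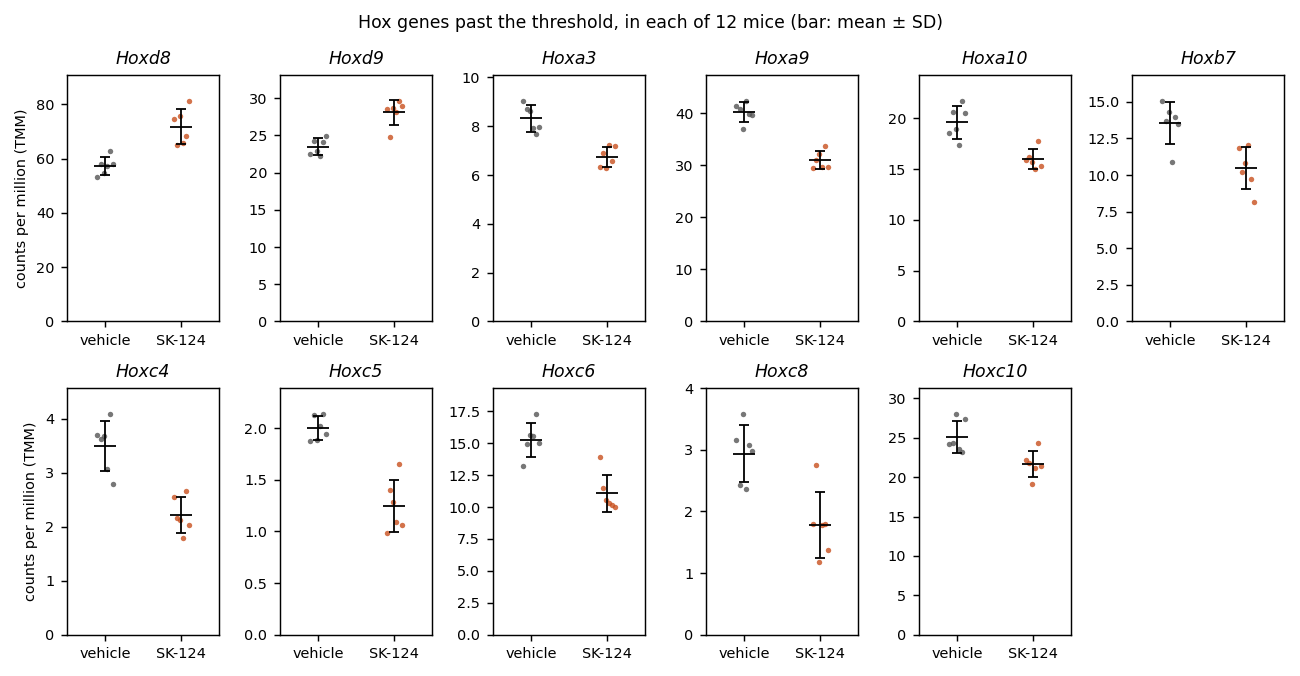
TMM-scaled CPM of the 11 called Hox genes in each of 12 mice (gray vehicle, orange SK-124; bar and whiskers, mean ± SD, n = 6), with each y axis starting at 0. The groups did not overlap for *Hoxd8*, *Hoxa3*, *Hoxa9*, *Hoxc4* and *Hoxc5*.

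Summed over a cluster, *Hoxa* reads were at 138.1 to 146.8 CPM in vehicle mice and 113.8 to 129.4 CPM in SK-124 mice. *Hoxc* sums were 54.0 to 64.8 CPM and 43.5 to 51.0 CPM. In both clusters the groups did not overlap, whereas the *Hoxb* sums overlapped in part, at 122.0 to 145.1 CPM and 114.9 to 140.7 CPM. *Hoxd* sums ran from 99.9 to 116.7 CPM in vehicle mice and from 113.9 to 138.8 CPM in SK-124 mice, with 1 SK-124 mouse among the vehicle mice. Opposite movements left the total over all 39 genes at 443.3 ± 15.2 CPM in vehicle mice and 424.3 ± 17.1 CPM in SK-124 mice. Within each library, *Hoxd* reads were 1.64 to 1.98 times *Hoxc* reads in vehicle mice and 2.39 to 3.13 times in SK-124 mice. The sums are carried by the abundant members, and they are given without a test.

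**Figure D4:**
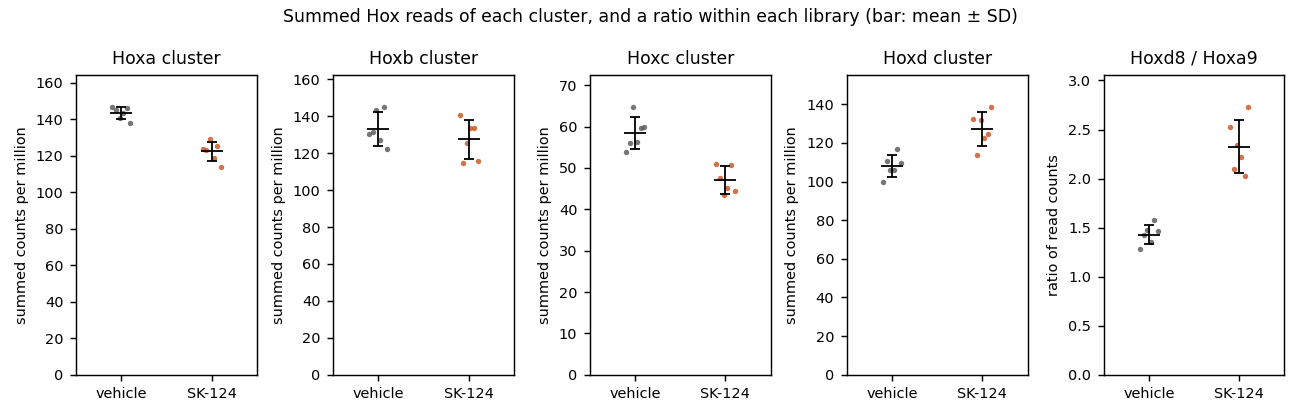
TMM-scaled CPM summed over each Hox cluster, and the ratio of *Hoxd8* to *Hoxa9* reads within each library, in each of 12 mice (gray vehicle, orange SK-124; bar and whiskers, mean ± SD, n = 6). The *Hoxa* and *Hoxc* sums were lower in all SK-124 mice, and the ratio rose from a mean of 1.43 to 2.32.

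Other genes in the clusters and beside them were looked at by position. The share of all genes tested that were called in either direction was 24.4%. Inside the 4 clusters lie 46 further annotated genes, of which 8 were tested and 0 were called (edgeR adjusted p between 0.262 and 0.839). They were antisense or noncoding transcripts such as *Hotairm1*, *Hoxa11os*, *Hoxb3os*, *Hoxb5os*, *Hoxd3os1* and *Gm53*, and the readthrough gene *Gm28230*, with log2 fold changes from -0.37 to 0.12. Some were low: *Hoxa11os*, *Hotairm1* and *Gm28309* had vehicle means of 0.815, 1.15 and 1.23 CPM and SE of 0.25, 0.28 and 0.22. The 7 genes of the clusters annotated as microRNA had 0 counts in all mice. Of 16 protein-coding genes next to the clusters, 11 were tested and 1 was called, *Calcoco1* beside *Hoxc* (log2 fold change 0.17, SE 0.06, edgeR adjusted p = 0.0486). *Lnpk* and *Mtx2*, which flank *Hoxd*, had log2 fold changes of 0.02 and -0.10 (edgeR adjusted p = 0.944 and 0.268).

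Hox proteins bind DNA with cofactors of the TALE homeodomain family, the Pbx, Meis and Pknox proteins. Of 8 cofactor genes compared, 7 were tested, 4 fell and 1 rose, with a median log2 fold change of -0.32 against -0.005 over all genes, of which 13.5% were called lower and 10.8% higher. *Pbx2* ran from 20.7 through a median of 22.9 to 27.3 CPM in vehicle mice and from 15.6 through 16.96 to 18.6 CPM in SK-124 mice, with no overlap (log2 fold change -0.46, SE 0.07, edgeR adjusted p = 0.000116). *Pknox2* (log2 fold change -0.77, SE 0.19, edgeR adjusted p = 0.00537) and *Meis1* (-0.65, SE 0.17, edgeR adjusted p = 0.0103) were lower from means of 2.27 and 2.37 CPM. The remaining calls, named since they completed the count, were *Meis2* (log2 fold change -0.32, edgeR adjusted p = 0.0485) and *Pknox1* (0.16, edgeR adjusted p = 0.0398). Each was lost in 8 of the 12 fits that left out 1 mouse, among them those without vehicle mouse 1, 4, 5 or 6 or SK-124 mouse 2, 3 or 5, and the *Pknox1* estimate changed sign under 2 alternatives. *Pbx3*, also named after its value was seen, was at 8.56 ± 0.702 CPM in vehicle mice and 8.44 ± 0.687 CPM in SK-124 mice. With SK-124 mice 1 to 3 alone, 1 of these cofactor genes was called lower and 1 higher, and with mice 4 to 6 alone, 3 lower and 0 higher. Over all genes, 1233 of 14512 were called lower and 1065 higher with mice 1 to 3. With mice 4 to 6, 1267 of 14621 were lower and 1179 higher. The *Pknox2* and *Meis1* calls were among those lost with mice 1 to 3 alone. *Pknox2* was also lost in limma on log2(TPM + 1) and on log2(TPM + 0.1).

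**Figure D5:**
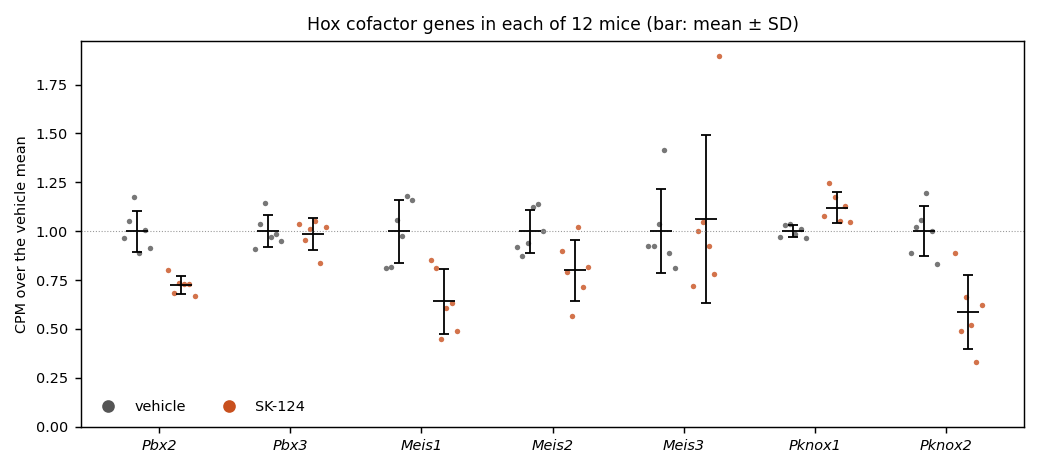
CPM of 7 cofactor genes in each of 12 mice, divided by the mean of the 6 vehicle mice (gray vehicle, orange SK-124; bar and whiskers, mean ± SD, n = 6). *Pbx2* lay lower in all SK-124 mice, and *Pbx3* and *Meis3* did not pass the test.

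Hox clusters are held in silent or active states by Polycomb and trithorax group proteins. Of 28 such genes compared, 27 were tested, 4 fell and 2 rose, with a median log2 fold change of -0.03, so that their calls came at about the background over all genes (24.4%; 13.5% lower and 10.8% higher). *Cbx8*, a Polycomb chromodomain gene, fell from 2.68 ± 0.210 CPM in vehicle mice to 1.79 ± 0.359 CPM in SK-124 mice (log2 fold change -0.57, SE 0.14, edgeR adjusted p = 0.00531), and *Pcgf2*, of Polycomb complex 1, from 17.6 ± 1.91 to 14.2 ± 1.58 CPM (log2 fold change -0.31, SE 0.09, edgeR adjusted p = 0.0129). *Men1*, which encodes menin, a partner of the KMT2A methyltransferase, fell from 33.9 ± 2.18 to 26.7 ± 1.58 CPM (log2 fold change -0.35, SE 0.06, edgeR adjusted p = 0.000315). *Kdm6a*, a demethylase that removes the Polycomb mark, rose from 18.0 ± 1.31 to 21.9 ± 0.778 CPM (log2 fold change 0.28, SE 0.06, edgeR adjusted p = 0.00169), a call lost with library totals (log2 fold change 0.17, edgeR adjusted p = 0.137). The *Cbx8* call was lost with SK-124 mice 4 to 6 alone and the *Pcgf2* call with mice 1 to 3 alone. Core subunits of Polycomb complex 2 were named after their values were seen. Of its alternative methyltransferases, *Ezh1* was called higher (log2 fold change 0.14, SE 0.05, edgeR adjusted p = 0.0445) and *Ezh2* did not pass (-0.19, edgeR adjusted p = 0.376), nor did *Eed* (-0.06, edgeR adjusted p = 0.667) or *Suz12* (0.06, edgeR adjusted p = 0.584). The *Ezh1* call was lost in 8 of the 12 fits that left out 1 mouse (vehicle mouse 2, 4, 5 or 6 or SK-124 mouse 1, 2, 4 or 6) and with library totals.

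Retinoic acid is the classical inducer of Hox transcription, acting through RAR receptors. Of 21 genes of this pathway and the Cdx family, 13 were tested, 4 fell and 0 rose, where 13.5% of all genes were called lower and 10.8% higher. All 3 receptor genes *Rara*, *Rarb* and *Rarg* were among them. *Rarg* ran from 15.8 through a median of 17.8 to 18.8 CPM in vehicle mice and from 9.80 through 10.96 to 12.8 CPM in SK-124 mice, with no overlap (log2 fold change -0.64, SE 0.08, edgeR adjusted p = 1.22e-05). *Rara* fell from 24.1 ± 2.38 to 17.9 ± 1.62 CPM (log2 fold change -0.43, SE 0.08, edgeR adjusted p = 0.000433) and *Rarb* from 6.26 ± 1.67 to 3.61 ± 0.963 CPM (log2 fold change -0.78, SE 0.18, edgeR adjusted p = 0.00375), with groups that overlapped in both. *Cyp26b1*, which degrades retinoic acid, ran from 4.39 through 7.02 to 31.8 CPM in vehicle mice and from 0.448 through 3.14 to 5.71 CPM in SK-124 mice (log2 fold change -1.83, SE 0.52, edgeR adjusted p = 0.0163). That call rested on vehicle mouse 1, without which the log2 fold change was -1.14 (edgeR adjusted p = 0.0537). The *Rarb* and *Cyp26b1* calls were lost with SK-124 mice 4 to 6 alone.

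Among 15 kidney patterning genes, 10 were tested, 3 fell and 1 rose, against the same background of 13.5% lower and 10.8% higher. *Osr1*, an early marker of kidney progenitors, fell from 3.51 ± 0.486 to 1.63 ± 0.452 CPM (log2 fold change -1.10, SE 0.17, edgeR adjusted p = 0.000122). *Pax2* fell from 39.1 ± 5.86 to 27.4 ± 5.10 CPM (log2 fold change -0.51, SE 0.12, edgeR adjusted p = 0.00321) and *Lhx1* from 22.6 ± 4.13 to 17.2 ± 2.26 CPM (log2 fold change -0.40, SE 0.12, edgeR adjusted p = 0.0186), the latter lost with either set of 3 SK-124 mice alone. *Sall1* rose from 48.8 ± 5.72 to 75.3 ± 12.4 CPM, with no overlap (log2 fold change 0.63, SE 0.10, edgeR adjusted p = 0.000165).

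Markers of the cells that can carry Hox transcripts were compared in the same libraries. For comparison, 24.4% of all genes tested were called, 13.5% lower and 10.8% higher. Of 7 stromal markers, all tested, 2 fell (*Pdgfrb*, log2 fold change -0.93, and *Col1a2*, -0.45) and 1 rose (*Acta2*, 0.41), and none was at 0. Of their estimates 6 of 7 were below 0, with a median log2 fold change of -0.42, so that they lay on the same side as most Hox estimates. Their summed level was 162.9 to 241.0 CPM in vehicle mice and 115.1 to 210.2 CPM in SK-124 mice. Of 6 immune markers, 5 were tested and 2 fell (*Cd68* and *Cd79a*, named after their values were seen), with a median log2 fold change of -0.29 and sums of 22.0 to 30.5 CPM in vehicle mice and 20.3 to 29.3 CPM in SK-124 mice. Of 6 collecting duct principal cell markers, 1 rose (*Aqp2*, log2 fold change 0.75) and 1 fell (*Avpr2*, -1.17), with sums of 211.1 to 296.5 and 237.2 to 385.1 CPM. Of 8 proximal tubule markers, 1 fell, with sums of 7925 to 8917 and 7317 to 9320 CPM. Median log2 fold changes were 0.34 for urothelium, 0.21 for thick ascending limb, 0.17 for thin limb and inner medulla and 0.13 for intercalated cells. Those of endothelial cells, principal cells and distal convoluted tubule were 0.07, 0.06 and 0.04. Podocyte and proximal tubule medians were -0.006 and -0.05. In each of these lists the summed levels of the groups overlapped, and their part in the Hox results was not tested.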

How the data were processed

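Kidney RNA-Seq of 6 vehicle and 6 SK-124 mice was analyzed from 1 gene table per library. Per the labels, the authors used FastQC, STAR (2.7.2b), RSEM (1.3.0), DESeq2 and the mm10 build. The deposited tables hold RSEM expected counts and TPM, and the annotation release and strand setting are not given in the sources used here. Estimated counts were rounded and fitted with edgeR (4.0.16; R 4.3.3), TMM and the quasi-likelihood test. The filterByExpr filter left 14159 genes, and p-values were Benjamini-Hochberg adjusted over them. The SE is the log2 fold change over the square root of F. CPM served differences between groups, and TPM levels between genes. Library totals of 19244227 to 19771802 counts limit precision for genes under about 100 counts. DESeq2 (1.42.0), limma (3.58.1) on log2(TPM + 1) and log2(TPM + 0.1), other scalings and filters, unrounded counts, robust dispersion, a replicate block and fits without single mice or with 3 of the SK-124 mice were alternatives. The fit was tested on simulated counts. There edgeR recovered 35.8% of genes changed by a log2 fold of 0.3, 67.2% at 0.5 and 93.9% at 1. False genes made up 5.07% of its calls, and small changes could go uncalled. The simulation changed only 67, 66 and 64 tested genes at these sizes, up and down alike, against 3453 genes called in the data. Its most abundant genes took the same expected share in each library. Its recovery and false share therefore need not hold for these data, and it did not test the choice of scaling. No 2 libraries of a group were duplicates (chi-square per degree of freedom of at least 4.72 over 30 pairs). The members, gene lists and naming rule (called members, the 10 highest by TPM, the extreme fold changes, *Hoxb7* and the group 11 genes, up to 4 called genes per list with the smallest p, and genes in and beside the clusters) were chosen with earlier results of these data known. Some genes of these lists are not reported here.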

Additional observations from a re-analysis of the deposited data

Results flagged for a closer look

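For 17 Hox genes in 2 groups of 6 mice each (34 groups), the gap between the extreme mouse and its nearest neighbor was compared with the range of the group. In 2 of the 34 groups it passed Dixon's critical value, which chance passes in about 1 of 20 groups. *Hoxb7* in vehicle mouse 4 was at 10.89 CPM, below the other vehicle mice at 13.5 to 15.1 CPM. *Hoxd9* in SK-124 mouse 2 was at 24.84 CPM, below the other SK-124 mice at 28.1 to 29.6 CPM. Both genes kept their call without any 1 mouse, with edgeR adjusted p of 0.00206 to 0.0207 for *Hoxb7* and 0.000747 to 0.00823 for *Hoxd9*.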

How the results depend on the processing

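Over 25 alternatives, the calls of *Hoxa9*, *Hoxa10*, *Hoxc4* and *Hoxc6* held in every one, and no called member changed direction. The count of Hox genes higher with SK-124 was 2 and fell to 0 with library totals, with limma on log2(TPM + 1) and with limma on log2(TPM + 0.1), and to 1 with SK-124 mice 1 to 3 alone. It was 2 in all fits without 1 mouse. The count lower was 9, from 8 to 10 without 1 mouse and from 6 to 11 otherwise. The median log2 fold change of the tested Hox genes was -0.15, from -0.22 to -0.13 without 1 mouse, and moved to -0.27 with library totals, -0.31 with limma on log2(TPM + 0.1) and -0.24 with library totals without the 10 most abundant genes. These settings also moved the median of all genes, to -0.12, -0.14 and -0.09; beyond that, the cause was not tested. Of 424 values of 17 single genes, 400 kept their side of the threshold, 19 lost the call and 5, all of *Hoxa7*, gained it. With the replicate number as a block, 2 Hox genes were higher, 8 lower and the median -0.16, and *Hoxc10* was lost (log2 fold change -0.21, edgeR adjusted p = 0.0624). Same-numbered mice of the groups do not share a source in the labels, and their deviations correlated at -0.13 to 0.22, with 2 of 6 best matched to their own number. Depth limits the 8 untested Hox genes and those under about 100 counts.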
